A study of Mus musculus with 3 samples.

Results

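Natural killer (NK) cells of the mouse liver were described in single-cell RNA sequencing of 3 libraries, 1 per condition. All mice were wild-type male C57BL/6 animals (C57BL/6J in the study's methods) that were 8 weeks old at the start. Each library held pooled cells of 2 mice. The control library (CON) came from untreated mice. The second library (HFD) came from mice that ate a 60% kcal fat diet during 4 months. The third library (CCL4) came from mice kept on chow for 3 months and then injected intraperitoneally with 0.1 mL of a 10% carbon tetrachloride (CCl4) solution 2 times a week for 4 weeks. Hepatocytes and non-parenchymal cells were released with collagenase and mixed in equal parts before droplet capture, so shares of cells reflect that mixing as well as the liver. With pooled mice and 1 library per condition there was no replicate of a condition, and every interval given for a single library covers counting error only.

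The NK cells were chosen by measured values. A barcode was kept if at most 30% of its unique molecular identifiers (UMIs, 1 per captured transcript) were mitochondrial, if it held at least 4 UMIs of Ncr1, Klra4, Klra8, Klra7, Eomes, Prf1, Gzma and Klrb1c together from 3 or more of these genes, and if it held none of Cd3d, Cd3e, Trac and Cd79a, which mark T and B cells. This kept 963 of 36990 barcodes. They were 713 of 11245 in control (6.34%, exact Clopper-Pearson 95% interval 5.90 to 6.81), 107 of 12984 in HFD (0.824%, 0.676 to 0.995) and 143 of 12761 in CCL4 (1.12%, 0.945 to 1.32). Among the 4 kinds of lymphocyte defined by the same type of rule (NK cells, T cells, T cells with NK receptors and B cells), NK cells were 29.1% of 2446 in control, 10.2% of 1054 in HFD and 16.0% of 891 in CCL4. The NK cells had medians of 2465, 2344 and 1935 UMIs, and the libraries held 49613255, 34985786 and 34061186 UMIs in all. No NK cell barcode recurred as an NK cell in another library, although 36 barcodes were shared by control and HFD, 49 by control and CCL4 and 52 by HFD and CCL4. Because the NK cells were sparser per cell in CCL4, applying the same rule after thinning every barcode to 1500 UMIs gave 5.06%, 0.478% and 0.776%.

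NK cells are innate lymphocytes that kill stressed, infected or transformed cells without prior priming, by releasing perforin and granzymes or by engaging death receptors. Activating receptors such as NKp46 (Ncr1), NK1.1 (Klrb1c) and NKG2D (Klrk1) signal through adaptor proteins. They are balanced by inhibitory receptors that read major histocompatibility class I molecules, in mice mainly the inhibitory members of the Ly49 family (Klra genes). The liver is rich in NK cells, which patrol the sinusoids and can kill activated stellate cells. It also holds resident type 1 innate lymphoid cells (ILC1), which share Ncr1 and Klrb1c with NK cells but largely lack Eomes and most Ly49 receptors.

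The promoters of the selecting genes were searched for the letters TGTGGT (or ACCACA on the other strand), the core bound by RUNX factors, in the 250 bases before each RefSeq start of the mouse build GRCm38.p6. Of the 8 selecting genes, 4 held them (50%), against 4303 of 27025 genes of the whole table (15.9%). Later, 152 genes were found higher in NK cells than in T and B cells, with a mean level of 50 CPM or more. CPM are the UMIs of a gene scaled to a total of 1000000. Of the 152 genes, 124 had a promoter in the table and 20 of these held the letters (16.1%). This was near the 15.9% of the whole table and the 12.6% of all genes tested there. The T-box letters TCACACC (or GGTGTGA) were in no promoter of the 8 and in 5 of the 124 (4.03%), against 3.84% of the whole table and 3.25% of the genes tested. A match is a description of the sequence and not a bound site. Counted by start, the 8 genes had 11 promoters and 5 of these held the RUNX letters, as Ncr1 has a further start whose overlapping promoter at chr7:4337474-4337723 holds the same matches. For each of the 4 genes 1 promoter is shown, because these genes define the cells, with the letters in capitals and each sequence read 5′ to 3′ on its gene's strand. They lie upstream of the transcript at chr7:4337465-4337714 (plus strand) for Ncr1, chr10:61297586-61297835 (plus) for Prf1, chr13:113100982-113101231 (minus) for Gzma and chr6:128788642-128788891 (minus) for Klrb1c.
Ncr1: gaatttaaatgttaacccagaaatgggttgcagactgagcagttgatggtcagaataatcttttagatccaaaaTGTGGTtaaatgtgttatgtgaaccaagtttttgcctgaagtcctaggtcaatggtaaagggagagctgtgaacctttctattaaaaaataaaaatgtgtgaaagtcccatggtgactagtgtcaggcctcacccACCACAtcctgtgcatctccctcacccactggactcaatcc
Prf1: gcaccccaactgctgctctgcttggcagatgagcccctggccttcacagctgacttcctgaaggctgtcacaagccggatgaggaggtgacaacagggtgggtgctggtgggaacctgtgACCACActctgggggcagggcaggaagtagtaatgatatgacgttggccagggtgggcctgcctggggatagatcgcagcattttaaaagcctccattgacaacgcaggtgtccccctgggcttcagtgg
Gzma: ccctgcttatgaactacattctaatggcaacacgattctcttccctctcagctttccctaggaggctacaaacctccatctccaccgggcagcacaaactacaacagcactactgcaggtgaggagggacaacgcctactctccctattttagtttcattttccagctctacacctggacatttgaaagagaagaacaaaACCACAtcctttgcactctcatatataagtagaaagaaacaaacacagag
Klrb1c: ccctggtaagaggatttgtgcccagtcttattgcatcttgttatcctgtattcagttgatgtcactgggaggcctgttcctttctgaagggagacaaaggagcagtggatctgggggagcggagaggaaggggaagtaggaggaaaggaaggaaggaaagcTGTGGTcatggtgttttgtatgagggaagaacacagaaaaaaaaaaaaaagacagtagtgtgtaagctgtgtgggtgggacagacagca

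The selecting genes themselves were not evenly seen, and their levels are given as a description because they chose the cells. Gzma, a granzyme, stood at 4098 CPM in control, 2817 in HFD and 1934 in CCL4, with a UMI in 92.1%, 91.6% and 96.5% of NK cells. Prf1, which encodes the pore-forming perforin, stood at 721, 406 and 343 CPM. The activating receptor Ncr1 stood at 371, 380 and 266 CPM, and Klrb1c at 358, 234 and 269. Eomes, the T-box factor of NK cells, stood at 293, 175 and 192 CPM. The Ly49 genes of the rule stood at 383, 208 and 256 CPM (Klra4), 252, 164 and 176 (Klra8) and 199, 164 and 99.2 (Klra7). Control was highest for 7 of the 8 genes, and Ncr1 was within counting error in control and HFD. Together the 8 genes made a median of 18, 11 and 7 UMIs per NK cell. Cells that passed on exactly 3 of the genes were 26.6%, 46.7% and 57.3%, so the selection acted closer to its limit in HFD and CCL4.

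Near the limit, 23, 7 and 17 NK cells held exactly 4 UMIs of the 8 genes, and 14, 8 and 8 barcodes with 3 UMIs of 3 genes fell outside. Barcodes with 4 or more UMIs of only 2 genes, also outside, numbered 121, 64 and 95. Their level of Nkg7, a granule membrane protein that the rule did not use, was 893, 587 and 450 CPM, beside 1222, 621 and 449 CPM in NK cells with 3 of the genes.

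The label was checked with genes outside the rule. Tyrobp and Fcer1g, the adaptors DAP12 and FcRγ of activating receptors, stood at 1345, 904 and 643 CPM and at 1713, 1366 and 797 CPM in control, HFD and CCL4. In T cells Tyrobp was between 48.8 and 104 CPM. Nkg7 stood at 1394, 740 and 490 CPM, the NKG2 partner Klrd1 (CD94) at 702, 331 and 320, and Il2rb, the interleukin-15 receptor chain, at 1576, 900 and 554. Each of these was higher in NK cells than in T and B cells of the same library. A UMI of Nkg7 was seen in 95.7%, 74.8% and 56.6% of NK cells (85.0%, 60.9% and 46.2% after thinning to 1500 UMIs), against 1.37%, 0.847% and 0.833% of B cells, which should lack it and had medians of 1956, 2737 and 1951 UMIs.

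Transcripts of T cells were low but not absent. Cd3g, a T-cell receptor subunit that the rule did not exclude, was in 20, 3 and 3 NK cells. Trbc1, a T-cell receptor beta constant segment, was in 45.2%, 29.0% and 14.0% of NK cells at 242, 127 and 70.4 CPM, against 246, 149 and 141 CPM in T cells, so the levels were close in control and less so in CCL4. Of the 14 T-cell genes measured, 0, 6 and 5 were at 0 in control, HFD and CCL4, and their summed level was 619, 324 and 311 CPM, against 3247, 1798 and 1749 in T cells. Asking also for no UMI of 7 more T- and B-cell genes, Trbc1 and Trbc2 included, left 2.54%, 0.462% and 0.776% of barcodes as NK cells.

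**Figure D1:**
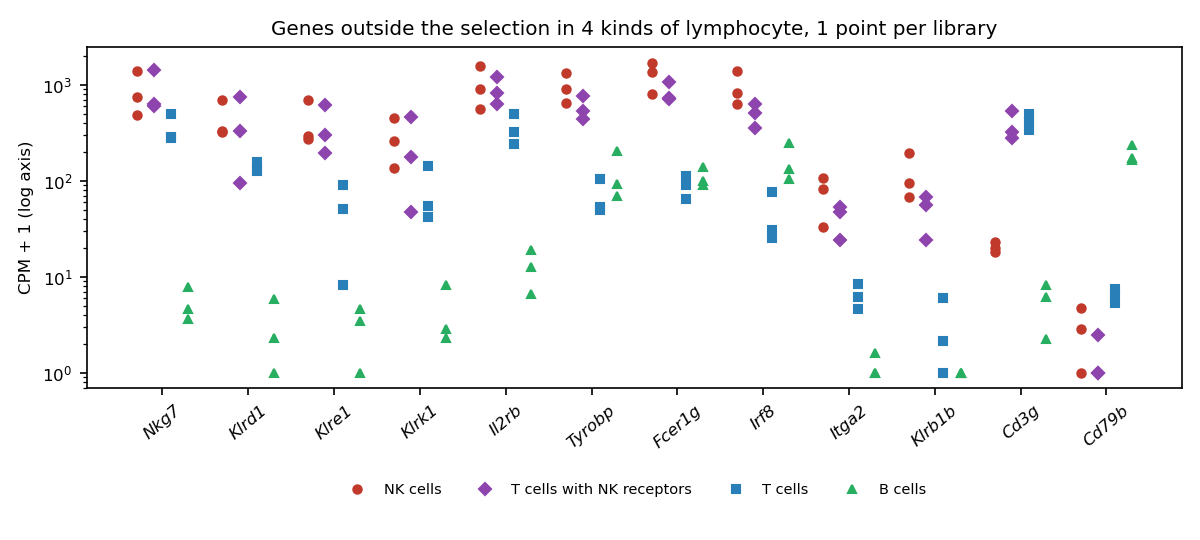
Summed level (CPM plus 1, log axis) of 12 genes that the selection did not use in NK cells, T cells with NK receptors, T cells and B cells, with 1 point per library. The NK points for Tyrobp and Fcer1g lie between 643 and 1713 CPM, above every T-cell and B-cell point, while Cd3g is low in NK cells and Cd79b is low in all kinds but B cells.

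RNA of hepatocytes was present in every NK cell, as in the other cells of the suspensions. A list of 23 hepatocyte genes made 7.91%, 13.6% and 21.0% of NK cell UMIs in control, HFD and CCL4, and 8.27%, 14.1% and 19.3% of T cell UMIs. Alb (albumin) stood at 4884, 16677 and 37842 CPM. Relative to all other barcodes of the same library, the median hepatocyte gene was at 0.447, 0.736 and 0.881. These values moved with the condition, so they stand beside every comparison of conditions given later.

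NK cells were then compared with T cells of the same libraries, to see which genes outside the rule set them apart. Of 8439 genes tested, 315 were higher in NK cells (3.73%) and 324 were lower (3.84%), by edgeR's quasi-likelihood test on summed UMIs with library as block and Benjamini-Hochberg adjusted p under 0.05. The 3 libraries are 3 conditions and serve as the samples of this test. Genes of the rule got no call, and the other genes were not used by the rule but go along with cell identity. NK cells were led by Cma1 (mast cell chymase 1), Adamts14, the lectin-like receptors Klrb1b and Klri2, and the Ly49 genes Klra3 and Klra13-ps. Also among the leading genes were the transcription factor Irf8, carbonic anhydrase Car2, and the adaptors Fcer1g and Tyrobp. Of 7 erythroid genes tested 4 were higher in NK cells as well (median log2 0.98), and DESeq2 called 1. Cma1 stood at 71.9, 37.2 and 76.8 CPM in NK cells with no UMI in any T cell, which over the 3 libraries together makes it at least 142-fold higher. Irf8 stood at 1411, 830 and 631 CPM and at most 75.3 CPM in T cells (log2 4.47, edgeR adjusted p = 3.19e-18). T cells were led by Themis, Cd6, Cd5, Cd8b1, Cd8a, Gm8369, BE692007, Ccr7, Ctla4 and Cd3g, most of them genes of T-cell receptor signalling and co-receptors. Without the control library, which holds 713 of the 963 NK cells, 88 and 116 of 4883 genes tested passed.

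Effector genes were mostly on the NK side. Of 16 cytotoxic granule genes tested, 9 were higher and 1 was lower (median log2 0.97, against -0.04 over all genes tested). For this list and those that follow, 3.73% of all genes tested were higher and 3.84% lower. The log2 ratio was 2.15 for Gzmb (granzyme B), 1.22 for Nkg7, 1.45 for the cathepsin Ctsw and 2.60 for Serpinb9, which protects cells from granzyme B, whereas Gzmk was lower (-2.49). Of 6 cytokine and chemokine genes tested, 5 were higher. They were Ccl3 (3.18), Ccl4 (2.31), Xcl1 (1.67), which attracts cross-presenting dendritic cells, Ccl5 (1.00) and Ifng (0.82). Among 3 death ligand genes tested Fasl was higher (0.95) and Ltb, a lymphotoxin subunit, was lower. Without the control library Ccl5 (0.79), Ifng (0.33), Fasl (0.65) and Gzmk (-1.73) kept their sign but no longer passed edgeR's test.

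Receptors and their adaptors were compared with the same background, 3.73% of all genes tested higher and 3.84% lower. Of 12 genes tested from the inhibitory receptor list 6 were higher, among them Klre1 (log2 3.12), Klrg1 (3.10), Klrd1 (1.63) and Klrc1 (1.60, NKG2A). The T-cell checkpoints Pdcd1 and Ctla4 were lower. The list is not purely inhibitory, as it holds Klrd1, the partner that NKG2A and NKG2C share. All 4 Ly49 genes tested outside the rule were higher, Klra1 by 2.53 and Klra9 by 3.51. Of 11 activating and adhesion receptor genes 5 were higher, such as Cd244a (3.26), Klrc2 (1.97) and Klrk1 (1.80), and Slamf6 was lower (-2.91). Of 19 adaptor and kinase genes 5 were higher and 2 were lower. The higher ones included Lat2 (3.29), Syk (1.89) and Txk (0.92). Among 18 cytokine receptor genes 5 were higher and 4 lower, with Il18rap (2.59), Il12rb2 (1.91) and Il2rb (1.45) on the NK side and Il7r (-3.08) on the T-cell side.

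Transcription factors and trafficking genes were split between the 2 kinds, beside the same 3.73% higher and 3.84% lower of all genes. Of 20 transcription factor genes 4 were higher, with Zeb2 (1.95) and Tbx21 (1.76, T-bet) after Irf8, and 5 were lower, such as Ikzf2 (-1.69) and Tcf7 (-1.59). Of 24 homing and residency genes 12 were higher and 5 lower. The egress receptor S1pr5 (4.04) and the integrins Itga2 (3.72), Itgam (3.56) and Itgax (3.38) were higher, while Ccr7, Cxcr6 (-2.13), S1pr1 (-2.08), Cxcr3 (-1.37) and Cd69 (-1.05) were lower. Of 16 genes of NK cell maturation 10 were higher, among them Cx3cr1 (2.27) and Kit (2.75), and Cd27 (-1.25), Emb (-1.04), Thy1 (-1.74) and Ltb were lower. Cx3cr1 no longer passed without the control library (1.90). None of 10 heat shock genes, 23 genes of oxidative phosphorylation and 23 of fatty acid handling passed in edgeR (2, 0 and 3 at an unadjusted p under 0.05) or in DESeq2. Of 26 interferon-stimulated genes 3 were lower in NK cells, led by Ifi27l2a (-3.48), and none was higher, in edgeR also at an unadjusted p under 0.05 or in DESeq2. Ighg2c, an immunoglobulin constant gene, also passed as higher, but 401 of its 407 UMIs in HFD NK cells came from 1 barcode.

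**Figure D2:**
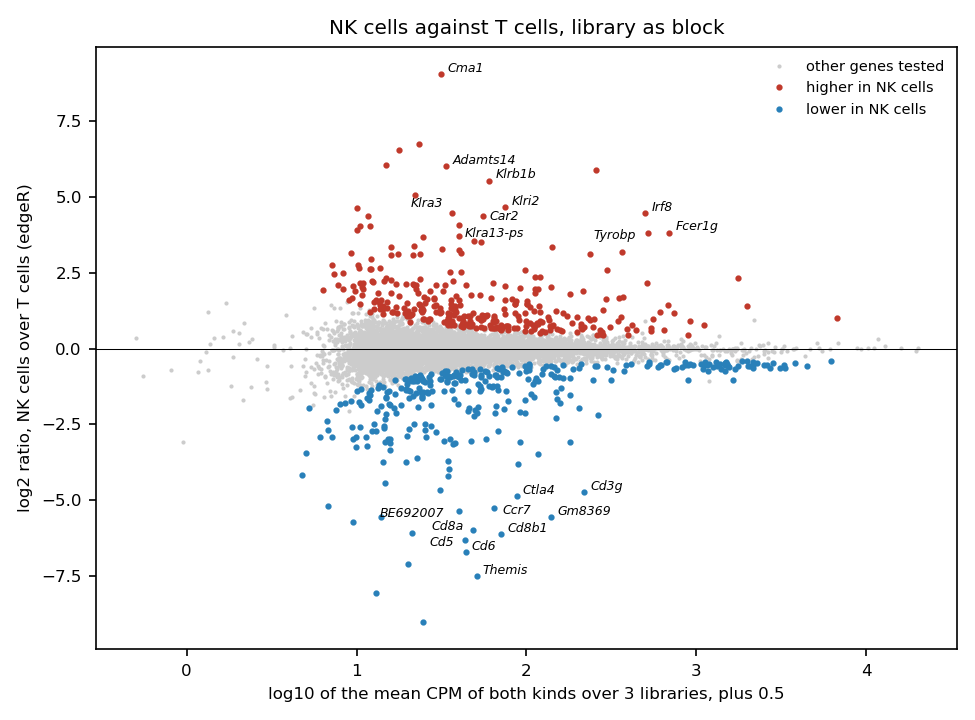
Log2 ratio of NK cells over T cells from edgeR against the log10 mean level of both kinds over the 3 libraries, 1 point per gene (8439 genes). Red points are the 315 genes higher in NK cells and blue points the 324 lower at an adjusted p under 0.05, and the named genes are the 10 leading ones on each side by the rule, which asks for a mean level of 50 CPM or more where a gene is higher.

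T cells with NK receptors met the same requirement for the 8 genes but held a UMI of Cd3d, Cd3e or Trac. There were 176, 34 and 16 of them, which limits the calls that can be made. Against these cells 78 genes were higher in NK cells (0.924% of those tested) and 83 lower (0.984%), by the same edgeR test. NK cells had more Irf8 (log2 1.20, edgeR adjusted p = 6.83e-05), Itgam (1.30), Itga2 (1.05), Tyrobp (0.97), Il18rap (0.95), Fcer1g (0.79), Klrb1b (1.53) and Klra9 (1.58). None of 16 granule genes, 6 cytokine genes or 11 activating receptor genes was higher by edgeR (5, 0 and 1 at an unadjusted p under 0.05) or by DESeq2 (1, 0 and 0). On the other side stood Cd8a, Cd8b1, Cd6, Cd3g, BE692007, Gm8369, Ctla4, Ccr7, Gzmk (-3.25), Pdcd1 and Igfbp5, and 7 of 13 ILC1 genes, among them Cxcr6 (-1.69) and Il7r (-1.14). DESeq2 called 2 of the 13 lower (8 at an unadjusted p under 0.05) and edgeR with no library block 0 (6 unadjusted). DESeq2 gave no adjusted p for 3932 of the 8439 genes of this comparison, so a missing DESeq2 call can be a missing value. Genes of other cells also differed: the haemoglobin genes Hbb-bt, Hba-a1, Hbb-bs and Hba-a2 led the higher genes, with Tlcd2, Vegfa, Il1b and Cyp3a13, and 13 of 23 hepatocyte genes (such as Apoa1, 0.63) and 5 of 9 granulocyte genes (such as S100a9, 2.39) were higher. DESeq2 called 12 of the hepatocyte genes and 0 of the granulocyte genes (1 at an unadjusted p under 0.05), and edgeR with no library block called 0 of either, also at an unadjusted p under 0.05. Without barcodes with UMIs of other lineages Hbb-bs (-0.67), Hba-a2 (-0.44) and Hbb-bt (-0.42) turned to the other side, and so did Igfbp5 (0.22). The T cells with NK receptors held more UMIs per cell (medians 2962, 2849 and 2467), and the part of that difference in these calls was not tested. Without the control library 2 of 4883 genes tested were higher and 9 lower, and without CCL4 35 of 10247 were higher.

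Against B cells, which here include antibody-secreting cells, 710 genes were higher in NK cells (8.41%) and 574 lower (6.8%). Without the control library 244 and 188 of 4883 genes tested passed. Klrb1b, Klra9, Klra13-ps, Gm36723, Klra3, Klra1 and Cma1 had no UMI in any B cell, which makes each at least 58.4-fold higher in NK cells over the 3 libraries together, and Trbc1, Klrc2 and Klre1 followed. The B-cell side was led by Ighg2b, Igha, Tnfrsf17, Iglc1, Igkc, Jchain, Cd79b, Fcmr and Iglv1. In all, 231 genes were higher in NK cells than in both T and B cells, and 14 were higher than in all 3 other kinds.

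Within the control NK cells, graph clustering gave 8 groups, and the genes that define them are given as a description. The largest group (215 cells) was led by Cma1, Cx3cr1 (the fractalkine receptor), Klrg1, Ly6c2 and Zeb2, genes of mature NK cells. In it Zeb2 stood at 627 CPM and Prf1 at 1292. The second (176 cells) was led by Emb, Ccr2, Ctla2a and Tcf7, with Cd27 at 140 CPM, genes of less mature NK cells. The fifth (64 cells) was led by Spp1, Rgs5, Tm4sf1, Timp3 and Ptprb, genes known from bile duct, mural and endothelial cells. The sixth (39 cells) carried the neutrophil granule genes Elane and Mpo with Cd74 and the proliferation gene Mki67 (264 CPM), at a median of 4939 UMIs. The fourth (65 cells, median 4405 UMIs) was led by hepatocyte genes, whose list made a median of 16.4% of UMIs there. The 24 cells of the seventh were led by S100a8 and S100a9 and the 11 of the eighth by haemoglobin genes. No doublets were called in these data, and the part of mixed droplets in groups 4 to 8 was not tested.

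The third group did not look like the others. Its 119 cells (16.7% of control NK cells) were led by Trgc4, Cxcr6, Il7r, Gm36723, Inpp4b, Cd200r1, Itga1, Cd160 and Gzmc. By these markers they were ILC1-like. Eomes and Klra8 stood at 3.10 CPM and Klra4 at 0 in this group, against 449, 402 and 506 CPM in the first, whereas Ncr1 stood at 613 CPM and Klrb1c at 545. These are genes of the rule, and a cell without Eomes and Ly49 UMIs could pass only through the remaining ones, so these levels are set in part by the selection. Gzmb stood at 3384 CPM and the chemokine Xcl1 at 1703, against 1732 and 185 in the first. Cd7 stood at 1118 CPM and Rgs1 at 3709. Of the 40 Gzmc UMIs of control NK cells 39 were in this group. By the markers above that the rule did not use, such as Cxcr6, Il7r and Cd200r1, these cells go against the label of NK cell. At other clustering resolutions the group held 119 to 123 cells.

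**Figure D3:**
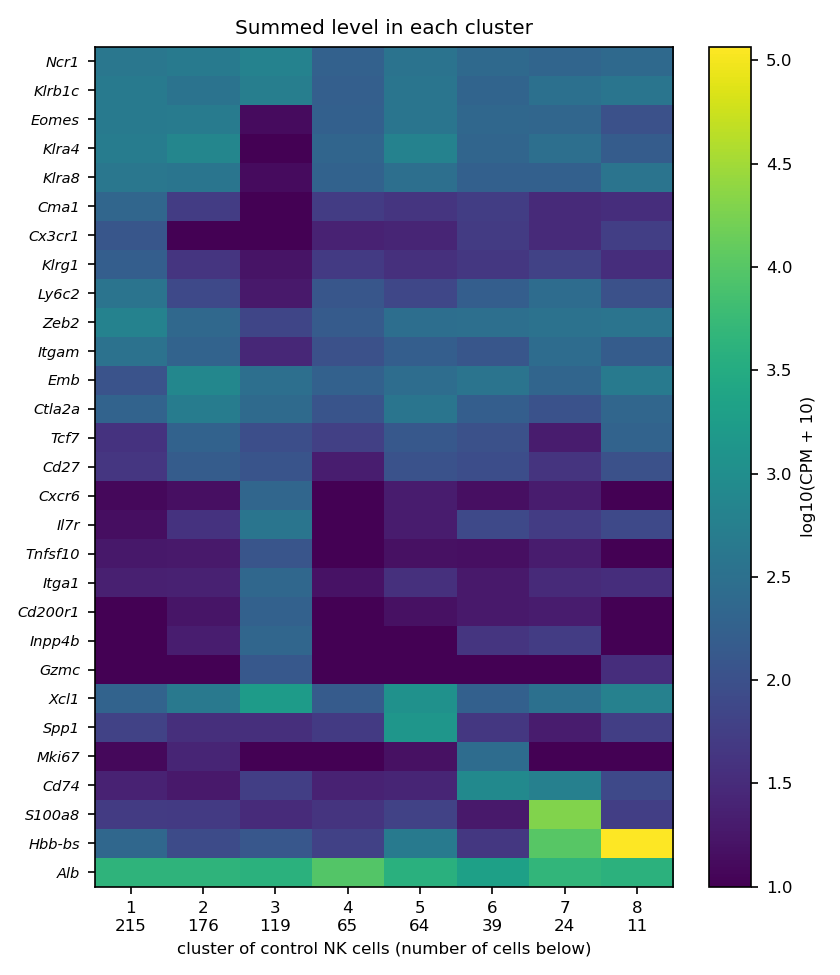
Heat map of the summed level, as log10 of CPM plus 10, of 29 genes in the 8 clusters of control NK cells, with the number of cells under each cluster number. Cluster 3 (119 cells) is dark for Eomes, Klra4 and Klra8 and bright for Cxcr6, Il7r, Itga1, Cd200r1 and Inpp4b, while clusters 7 and 8 are bright for S100a8 and Hbb-bs.

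The list of 15 ILC1 genes summed to 768, 540 and 429 CPM in NK cells and to 766, 564 and 485 CPM in B cells, with a UMI in 67.2%, 72.9% and 53.1% of NK cells. Its most abundant gene was Tmem176a in control and HFD and Tmem176b in CCL4, and Itga1 stood at 44.2, 37.2 and 16.0 CPM. A subset of 4 genes was chosen with their values known, as leading in or high in the ILC1-like control group. A larger difference from control was thus partly built in, and these values are a description. Cxcr6, Il7r, Tnfsf10 (TRAIL) and Cd200r1 together had 339 UMIs in control NK cells, 19 in HFD and 0 in CCL4. As a summed level this was 159 CPM (exact Poisson 95% interval 143 to 177) in control and 70.7 CPM (42.6 to 110) in HFD. In CCL4 the count of 0 allows up to 9.60 CPM, taken as 3 counts over the library, so the level was at least 16.6-fold lower than the value of control, where 49.8 UMIs would have been seen at the control level. With the control level scaled by the median ratio of NK genes, 21.7 UMIs would have been seen and the level was at least 7.25-fold lower by the same 3 counts. The exact 95% interval reached 11.8 CPM in CCL4, and that of the ratio to control reached 0.0745. A UMI of any of the 4 was in 18.5% (15.7 to 21.6), 11.2% (5.93 to 18.8) and 0% of NK cells, the last allowing a share of up to 2.10% by 3 counts and 2.55% by the exact interval. After thinning to 1500 UMIs the shares were 14.1%, 7.62% and 0%. In B cells the shares were 1.88%, 3.81% and 2.50%.

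The rule kept ILC1-like cells unevenly, and its part in this difference was not tested. After thinning to 1500 UMIs the rule kept 47.1% of the ILC1-like control group, against 93.0% and 87.5% of the first and second groups. Of groups 4 to 8 it kept 45.5% to 81.25%, so a low share was not particular to the ILC1-like group. A cell of the ILC1-like group showed a median of 3 of the 8 genes, the lowest number allowed. Barcodes with an Ncr1 UMI and no T- or B-cell UMI that the rule left out numbered 216, 85 and 89. Of these, 75.9%, 44.7% and 25.8% held a UMI of the 4 ILC1 genes (61.4%, 33.7% and 21.5% after thinning), at medians of 2503, 2342 and 1983 UMIs. In CCL4 that was 23 of 89 barcodes. Ncr1-positive cells with ILC1 genes were therefore present in all 3 libraries, and in CCL4 none was among the cells that passed. Over all Ncr1-positive barcodes, whether kept or not, the shares were 40.7% (37.0 to 44.5), 30.9% (23.7 to 38.9) and 15.2% (9.91 to 22.0). T cells also carried the 4 genes at a lower level in the treated libraries (720, 357 and 232 CPM).

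**Figure D4:**
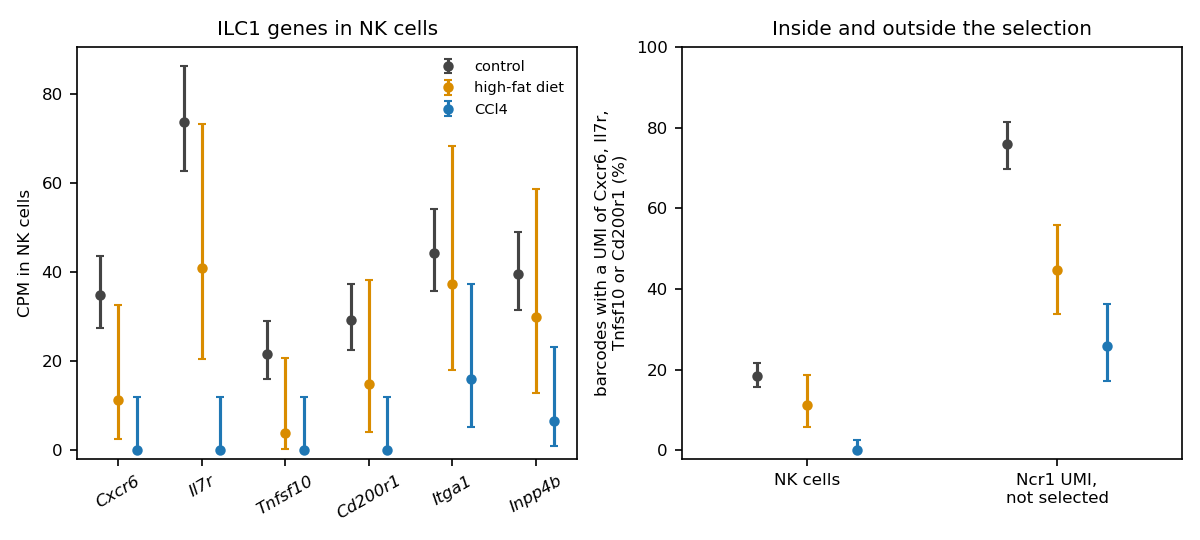
Left, level in CPM of 6 ILC1 genes in NK cells of each library, with exact Poisson 95% intervals. Right, percent of barcodes with a UMI of Cxcr6, Il7r, Tnfsf10 or Cd200r1, with exact binomial 95% intervals, in NK cells (18.5, 11.2 and 0%) and in Ncr1-positive barcodes that the selection left out (75.9, 44.7 and 25.8%).

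Of the 12 Ly49 genes 3 chose the cells, so values over all 12 are a description. NK cells with no Ly49 UMI were 23.1%, 25.2% and 25.2% (31.5%, 38.5% and 35.2% after thinning), and the summed level was 1289, 811 and 739 CPM. The 9 genes outside the rule had a UMI in 58.2%, 44.9% and 30.8% of NK cells (44.5%, 32.0% and 24.5% after thinning) and summed to 454, 275 and 208 CPM. Among them, Klra9 stood at 145, 85.6 and 64.0 CPM, Klra3 at 67.7, 93.0 and 48.0, Klra1 at 68.2, 59.5 and 54.4 and Klra13-ps at 147, 37.2 and 38.4. Klra5 and Klra6 had 24 and 17 UMIs in control, and Klra2, Klra10 and Klra17 had 7 or fewer in any library. Cells with 2 or more Ly49 genes were 56.5%, 43.0% and 30.8%, and the mean number of Ly49 genes per cell was 1.85, 1.38 and 1.16 (1.36, 0.971 and 0.906 after thinning). Control was highest in these sums and means, and HFD was highest for Klra3. Family members are near-identical in places: in the last 500 bases of the transcript, 32.4% of the 60-base words of Klra10, 32.0% of Klra3, 28.1% of Klra9, 23.1% of Klra7 and 17.5% of Klra13-ps were also in another member, so reads could have been split between them.

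For the conditions, ratios of summed CPM plus 5 were taken over genes that reached 50 CPM in 1 of the libraries and, where they were higher, were not below the level of all other barcodes of that library. With 1 library per condition no test was possible, and a gene was counted past 2-fold. A gene could reach the floor only in the library where it was high, so these counts and those of gene lists are a description. On the high-fat diet 92 of 2468 genes were higher (3.73%) and 554 lower (22.4%). With CCl4 129 of 2502 were higher (5.16%) and 993 lower (39.7%). Without the limit from other barcodes 415 were higher and 612 lower in HFD, and 503 and 1083 in CCL4. The median gene was at log2 -0.53 in HFD and -0.80 in CCL4, and in T cells it was at -0.48 and -0.61. The 152 genes that mark NK cells against T and B cells had medians of -0.74 (142 of 152 below 0) and -1.19 (145 of 152 below 0), and in T cells -0.47 and -0.76. The control library holds 713 of the 963 NK cells and carries most of the calls that chose this set, so the choice favours genes high in control and these medians are a description. Hepatocyte RNA took up more of the NK cell UMIs in HFD and CCL4, as given above, and its part in these values was not tested. Counted relative to the NK gene median instead, 382 genes were higher and 64 lower on the high-fat diet, and 619 and 70 with CCl4, so the split between higher and lower turned with the scaling. Both comparisons share the control library.

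**Figure D5:**
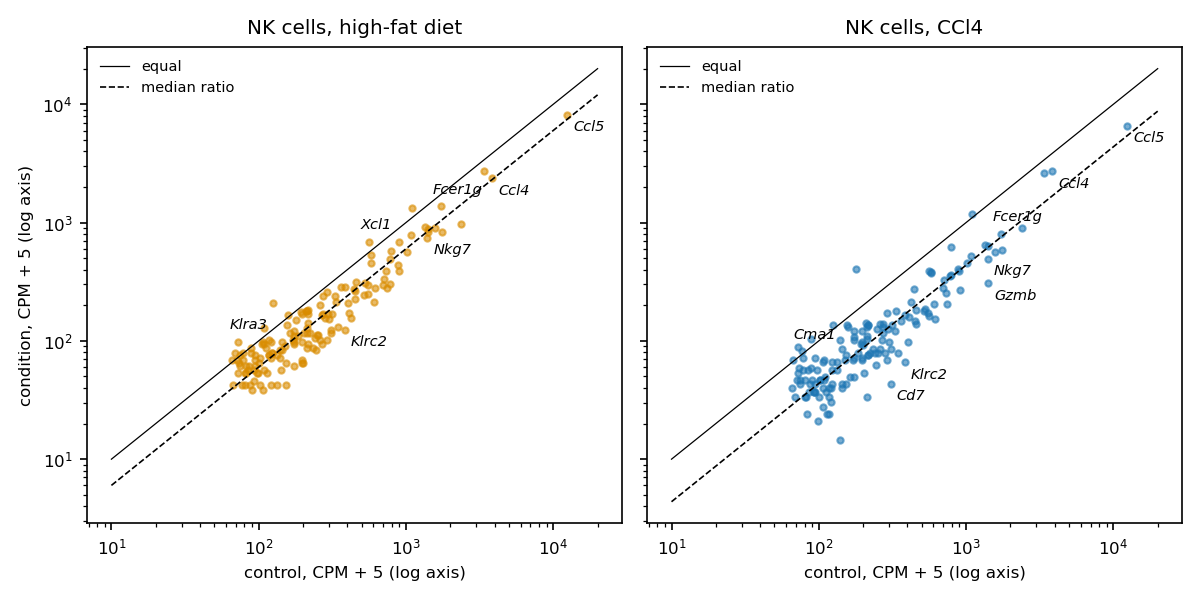
Level (CPM plus 5, log axes) of the 152 genes that mark NK cells, in HFD against control (left) and in CCL4 against control (right), 1 point per gene. The solid line is equality and the dashed line the median ratio (-0.74 and -1.19 on the log2 scale), and most points lie below the solid line.

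Most cytotoxic granule genes that passed the filter were lower in CCL4 on the scale of all UMIs, and fewer were in HFD. Gzmb stood at 1399 CPM (1349 to 1450) in control, 871 (763 to 990) in HFD and 301 (243 to 368) in CCL4, and the 3 intervals did not overlap. A UMI of Gzmb was in 82.6%, 66.4% and 37.8% of NK cells (70.2%, 54.2% and 30.4% after thinning), against at most 1.27% of B cells. In CCL4 its log2 ratio was -2.20, and in T cells -0.97. Within control, Gzmb stood at 3384 CPM in the ILC1-like group and at 490 to 1732 CPM in the other groups. The part of the ILC1-like group in the difference between conditions was not tested. Of 11 granule genes that passed the filter with CCl4, 10 were at least 2-fold lower and none higher, with a median of -1.51 beside -0.80 over all genes, of which 39.7% were lower. Relative to the NK gene median 2 were lower and 1 higher, with a median of -0.31. On the high-fat diet 4 of 12 were lower and 1 higher, with a median of -0.89 beside -0.53 over all genes, of which 22.4% were lower, so the share was near the background. Relative to the NK gene median 1 was lower and 1 higher, with a median of -0.15. The higher one on both scales was Gzmc, with 40 UMIs in control (18.8 CPM), 29 in HFD (108 CPM) and 0 in CCL4. It was in 7.48% of HFD NK cells and 1.82% of control cells (6.25% and 1.35% after thinning), in none of the B cells, and its HFD ratio was 5.74 (3.43 to 9.49). That interval takes UMIs as independent, but 12 of the 29 in HFD and 16 of the 40 in control were in 1 cell each. Gzmc marked the ILC1-like group, which the rule kept in part, and Ncr1-positive barcodes left out of the NK cells in CCL4 held 5 UMIs of it in 4 cells.

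Receptor and adhesion genes were also lower. Klrc2 (NKG2C) stood at 379, 119 and 60.8 CPM and Cd7 at 302, 112 and 38.4, at log2 -1.63 in HFD and -2.54 in CCL4 for Klrc2, and -2.82 with CCl4 for Cd7. Of the 643 Cd7 UMIs of control NK cells 361 were in the ILC1-like group, where it stood at 1118 CPM against 156 in the other control NK cells. T cells had values of the same sign for Klrc2 and Cd7 (-2.16 and -1.48 with CCl4). From the inhibitory receptor list, all 6 genes that passed the filter with CCl4 and 5 of 6 on the high-fat diet were at least 2-fold lower. This stands beside 39.7% and 22.4% of all genes. With CCl4 14 of 16 homing genes and 7 of 9 activating receptor genes were too. Relative to the NK gene median, none of the 6 inhibitory and none of the 16 homing genes was 2-fold lower with CCl4, nor were 6 of the 9 activating receptor genes, and none of the 6 inhibitory genes was on the high-fat diet. Klrd1, at log2 -1.12 with CCl4, was then at 0.07.

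Cytokine and chemokine genes did not pass 2-fold on the scale of all UMIs. Xcl1 was at 552, 681 and 381 CPM, Ccl4 at 3815, 2370 and 2708, and Ccl5 at 12410, 8138 and 6601. Of the 1174 Xcl1 UMIs of control NK cells 550 were in the ILC1-like group. Xcl1 stood at 1703 CPM there and at 346 CPM in the other control NK cells. None of the 5 cytokine and chemokine genes that passed the filter was 2-fold lower, beside 22.4% of all genes in HFD and 39.7% in CCL4. Their medians were -0.61 and -0.53 beside -0.53 and -0.80 over all genes. Relative to the NK gene median 1 of the 5 was at least 2-fold higher in HFD and 0 in CCL4, and 0 were lower in either. The mature NK gene Cma1 was at 71.9, 37.2 and 76.8 CPM, with overlapping intervals in control and CCL4 (61.0 to 84.3 and 49.2 to 114). In the list of maturation genes 9 of 13 were at least 2-fold lower in CCL4 and none higher (median -1.51), and 4 of 13 were lower in HFD. The list mixes genes of more and of less mature NK cells, such as Cx3cr1 and Cd27, so these counts give no direction of maturation. The kinase Zap70 was at 49.4, 55.8 and 106 CPM, the single gene 2-fold higher in CCL4 among 16 signalling adaptors and kinases, of which 11 were lower (median -1.11). Relative to the NK gene median 2 of the 13 and 1 of the 16 were lower.

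Heat shock genes were low in the treated libraries. Hspa1a, an inducible HSP70, stood at 277, 70.7 and 19.2 CPM, and Hspa1b had 775 UMIs in control and 6 in CCL4 (364 and 19.2 CPM, log2 -3.93). Of 8 genes that passed the filter 7 were at least 2-fold lower in HFD and 8 in CCL4, beside 22.4% and 39.7% of all genes. Relative to the NK gene median 3 of the 8 were lower in each. T cells had list medians of -0.85 and -1.74, beside -1.34 and -1.55 in NK cells, so the same direction was present outside NK cells.

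Other genes at the ends of the ranking on the lower side were, on the high-fat diet, B130021K23Rik, Gm43305, Hace1, P4ha1, Hsph1, Atad2, Cnot4, Inpp5d, Zeb1 and Serpinb9b, each with 14 or fewer UMIs in HFD. With CCl4 they were Hspa1b, Hspa1a, Slc44a2, Gm43065, Gm36723, Pgm2l1, Il4ra, 5330406M23Rik, Cd7 and Trim8. Slc44a2 had 119 UMIs in control and 0 in CCL4, at least 5.83-fold lower. Of the 287 Gm36723 UMIs of control NK cells 193 were in the ILC1-like group. On the higher side, ratios to the other barcodes could not be below 1, since the filter removed such genes. With CCl4 the leading genes were Hamp2, a hepcidin gene, Angptl8, Rarres2, Hgfac, Wfdc2, Cryl1, Fahd1, Serpina12 and Foxa2, at 1.00 to 1.59 times the other barcodes. On the high-fat diet the leading genes were Ces1e, Serpina6, Elovl3, Ugt2b1, Abcb4, Proc, Ephx1 and Gas2, at 1.06 to 1.38 times, with Gzmc at 43.6 times and Ighg2c from 1 barcode. That barcode had 6912 UMIs, and 1020 of the 1090 Igkc UMIs of HFD NK cells were in it as well.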

How the data were processed

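The authors sequenced droplet-based 10x Genomics Chromium 3′ libraries and deposited, per library, a matrix of UMI counts of genes by barcodes made with Cell Ranger (version 7.2.0 per the file headers). The genome build is given as mm10 in the study's methods and as GRCm39 in the submitters' processing notes, so no coordinates were taken from the count files, and promoters are those of RefSeq on GRCm38.p6. The deposited counts were used as they stand. NK cells were chosen by the rule in the text, T cells by 2 or more UMIs of at least 2 of Cd3d, Cd3e and Trac, B cells by 2 or more Cd79a UMIs, each with fewer than 2 UMIs of the 8 NK genes and none of the other kind's genes. UMIs were summed per library and kind, and the 12 sums were compared in edgeR 4.0.16 (quasi-likelihood test, R 4.3.3). Conditions, with 1 library each, were compared by CPM ratios with exact Poisson and exact conditional 95% intervals. Control NK cells were clustered in scanpy 1.11.5 (1000 variable genes, 15 components, 15 neighbours, resolution 0.6). Doublets were not called, and 2 alternatives removed candidates instead. Named genes were the 10 leading ones each way, with at least 50 CPM on average where higher and the same side in all libraries for cell kinds, plus list genes and the genes of the rule. Some genes that the rule names are not reported here. The members, lists and tests were chosen with earlier results of these data known. The tests were checked on simulated data.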

Additional observations from a re-analysis of the deposited data

How the results depend on the processing

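The share of NK cells among barcodes (6.34%, 0.824% and 1.12% in control, HFD and CCL4) was 5.06%, 0.478% and 0.776% when the rule followed thinning to 1500 UMIs, 2.54%, 0.462% and 0.776% with no UMI of 7 more T- and B-cell genes, 4.61% in control and 0.555% in HFD without barcodes with UMIs of other lineages, and 5.83% in control without the 8% of barcodes with most UMIs. At least 6 UMIs of the 8 genes gave 0.662% in HFD and 0.799% in CCL4. Control was highest in each of these settings. Calls against T cells (315 higher, 324 lower) numbered 55 and 38 with no library block and 198 and 205 in DESeq2 1.42.0, and 488 were lower without the filter on low counts. Against T cells with NK receptors (78 and 83) there were 0 (103 at an unadjusted p under 0.05, and 56 by DESeq2 with the block) and 11 with no library block in edgeR, 29 and 31 after thinning, 182 and 125 with the 7 more genes, 15 and 50 without the top 8%, and 158 and 137 without the filter, and 31 (DESeq2) and 55 (a fit of the 2 kinds alone) were lower. Against B cells (710 and 574) there were 221 and 133 with no library block, 470 and 382 after thinning and 452 and 376 in a fit of the 2 kinds alone, and 350 were lower in DESeq2. Leaving out each library in turn gave 88 to 361 higher and 116 to 327 lower against T cells, 2 to 106 and 9 to 108 against T cells with NK receptors, and 244 to 862 and 188 to 519 against B cells. The genes tested numbered 8439 in the main fit, 4860 after thinning, 7743 without the top 8% and 22301 without the filter. They numbered 4883 without control, 9753 without HFD and 10247 without CCL4. Fits of 2 kinds alone tested 9623, 4513 and 6125 for T cells, T cells with NK receptors and B cells. The counts of calls are thus over unlike numbers of genes. Against T cells with NK receptors DESeq2 gave no adjusted p for 3932 of 8439 genes.

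Between conditions, genes at least 2-fold higher in HFD (92) were 179 after thinning, 187 with the 7 more genes, 165 without other lineages, 223 and 32 with floors of 20 and 100 CPM, 143 when scaled outside mitochondrial, ribosomal protein and hepatocyte genes, and 415 with no limit from other barcodes, and those lower (554) were 1078 and 271 with the 2 floors. In CCL4 the higher genes (129) were 215 after thinning, 228 and 85 with the floors, 212 with the scaling outside those genes, 199 with the median ratio of genes and 503 with no limit, and the lower genes (993) were 1688 and 516 with the floors. Scaling by the NK gene median, which was chosen after seeing the data, as were the other clustering resolutions, gave 382 and 64 in HFD and 619 and 70 in CCL4.

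Of 1737 single-gene values between cell kinds, 1578 kept their side and call, 151 kept the side without the call and 8 changed sign. Trbc1 against B cells was at log2 -2.06 once Trbc1 itself was required to be absent. Without other lineages, Igfbp5 (0.22), Hbb-bs (-0.67), Hba-a2 (-0.44) and Hbb-bt (-0.42) turned against T cells with NK receptors, and Mki67 did after thinning (0.011). Ighg2c against T cells was at -1.74 with the 7 more genes and -0.13 without the top 8%. Klrd1 in CCL4 was at 0.073 relative to the NK gene median. The cause was not tested.

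Between conditions, no paired analysis was possible because each had 1 library, while the comparisons of cell kinds were paired by library. The total of NK cell UMIs limits the treated libraries most, with 268747 in HFD and 312381 in CCL4 against 2127003 in control. A count of 0 allows 11.2 CPM in HFD NK cells and 9.60 in CCL4, against 1.41 in control.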

Other observations

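All 23 nuclear genes of oxidative phosphorylation reached 50 CPM. Without the limit from other barcodes 7 were at least 2-fold higher in CCL4 than in control and none lower, beside 503 higher and 1083 lower among all genes. With the limit 3 of 13 were higher, and relative to the NK gene median all 13 were (median 2.10). Their median log2 was 0.90 in NK cells and 0.93 in T cells. In CCL4 NK cells they stood at 0.794 to 1.15 times the other barcodes of that library, 10 of them below 1, and hepatocyte genes made 21.0% of NK cell UMIs. The part of RNA from other cells in these values was not tested. The histone variant gene H2az1 stood at 1098, 1332 and 1172 CPM in control, HFD and CCL4. Of 17 immediate-early genes 10 were at least 2-fold lower in CCL4 (median -1.13) and 5 in HFD (median -0.68), beside 39.7% and 22.4% of all genes, and relative to the NK gene median none was. Fos (402, 279 and 448 CPM) and Jun (527, 313 and 455 CPM), chosen after their values were seen, were lowest in HFD. Ly6a, an interferon-inducible surface antigen, stood at 20.2, 81.9 and 6.40 CPM, and its 22 UMIs in HFD came from 2.80% of NK cells.

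Genes of other cells in NK barcodes varied by library. The granulocyte list summed to 2474, 848 and 6.40 CPM, and 31.6% and 65.4% of its UMIs in control and HFD were in 1 barcode each. The 8 fibroblast genes summed to 23.0 and 7.44 CPM in control and HFD and were all at 0 in CCL4. The haemoglobin and other erythroid genes summed to 5653, 5887 and 4831 CPM, against 3939, 2358 and 1956 in T cells. Bdnf, the neurotrophin gene at the centre of the study, had 2, 0 and 0 UMIs in NK cells and its receptor gene Ntrk2 had 1, 0 and 2, at or under what a count of 0 allows.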
